A study of Homo sapiens with 18 samples.

Results

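The response of OCI-Ly1 to the lower of the doses of JIB-04 used in the series was examined across all genes. OCI-Ly1 is an established human cell line from a diffuse large B-cell lymphoma, and JIB-04 is a small-molecule inhibitor of Jumonji C (JmjC) histone demethylases. The comparison took the 3 libraries of cells given 150 nM JIB-04 and the 3 libraries of cells given the vehicle, 0.01% DMSO, by their labels, which is 6 of the 18 libraries of the series. No other agent, genetic change or selection was named for either group, and both were grown in IMDM with 10% serum. Each library was an rRNA-depleted, paired-end RNA-seq library, and per the labels the libraries of a group were technical triplicates. Nothing in the labels says that they came from separate cultures, so the p-values below measure the spread between libraries, which may be technical. In the main test that spread was estimated over 9 OCI-Ly1 libraries, the 6 compared and 3 given 500 nM JIB-04. The labels give no treatment time, so what moved at the low dose can be stated, but not the order in time.

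Of 23686 gene symbols in the count table, 15638 passed the low-count filter and were tested. Library totals ran from 17579732 to 25545170 estimated counts over the 6 libraries. The B-cell markers MS4A1, CD79A, CD79B, PAX5 and CD22 were all detected. Germinal-centre markers summed to 638 to 665 CPM (counts scaled to library size) in DMSO and to 624 to 695 CPM at 150 nM. Among them LMO2 and SERPINA9 were near absent, with at most 5 and 7 counts in a library. Plasma cell markers summed to 802 to 815 CPM in DMSO and to 772 to 902 CPM at 150 nM, with SDC1 at 0. Epithelial markers summed to 18.7 to 21.8 CPM in DMSO and to 17.1 to 18.6 CPM at 150 nM. Fibroblast and erythroid markers were at or near 0 in every library. The summed T-cell markers were low, at 19.8 to 23.1 CPM in DMSO and 15.2 to 16.8 CPM at 150 nM. Natural killer markers summed to 18.2 to 29.3 CPM in DMSO and to 16.5 to 17.5 CPM at 150 nM. Among these NCAM1 read 0.753, 12.3 and 0.847 CPM in DMSO libraries 1 to 3. In the test 0 markers of any cell type passed, but a marker high in a single library is unlikely to pass a test between groups.

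JmjC demethylases remove methyl groups from histone lysines, including lysine 9 of histone H3, a mark of silent heterochromatin, and they need iron and oxygen to work. Cells also have a general answer to shortage and damage, the integrated stress response. In it, kinases slow translation by phosphorylating the factor eIF2, the transcription factor ATF4 is then made in larger amounts, largely through translation of its existing mRNA, and ATF4 with C/EBP partners switches on genes for making, importing and using amino acids. Enzymes of sugar breakdown are controlled by another route, the hypoxia-inducible factors, which oxygen-dependent hydroxylases mark for destruction.

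At 150 nM the RNAs of 10 of 20 stress response regulators and of 22 of 53 genes of the amino acid programme rose. So did 4 of 29 p53 target genes, while 6 of 23 hypoxia-inducible genes fell and no JmjC gene passed the test. The changes were few and mostly small. edgeR's quasi-likelihood test called 117 genes higher (0.748% of those tested) and 22 lower (0.141%) at a Benjamini-Hochberg adjusted p under 0.05. Of the 139 called genes, 30 had a log2 change of 1 or more in size and 73 one below 0.5. Of the 117 genes called higher, 32 belonged to the stress response, amino acid enzyme, amino acid transporter or tRNA synthetase lists. The median log2 fold change over all tested genes was −0.0046. Fitted on the 6 libraries alone, without those given 500 nM, the test called 68 genes higher and 12 lower, and 78 of these were among the 139. With the replicate number as a block on 9 libraries the test called 159 genes higher and 48 lower, and all 139 genes remained among them. The count depended on single libraries: it was 60 higher and 5 lower without 150 nM library 2, 72 and 13 without DMSO library 2, and 264 and 88 without 150 nM library 1.

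**Figure D1:**
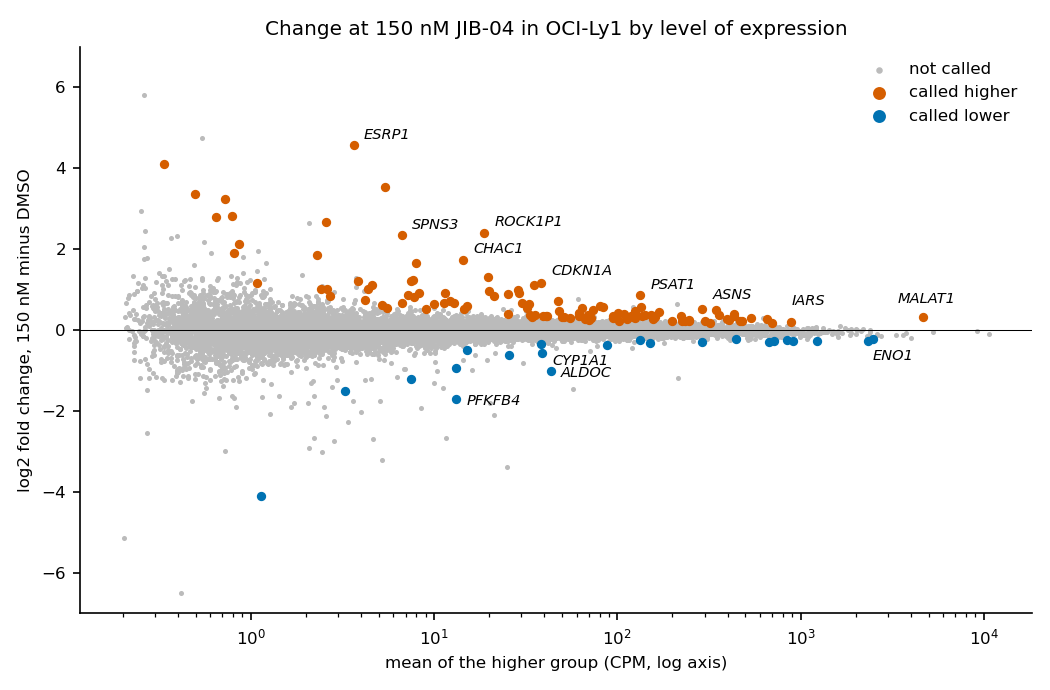
Each point is a tested gene whose higher group averaged 0.2 CPM or more, plotted by that average (log axis) and by its log2 fold change at 150 nM against DMSO. The 117 orange and 22 blue points are the genes called higher and lower, and called changes reach closer to 0 at high levels than at low ones.

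The sequence context of the amino acid response is shown first, for 3 called genes whose upstream DNA holds the core of the C/EBP-ATF response element. ASNS makes asparagine, CHAC1 breaks down glutathione, and IARS charges tRNA with isoleucine. The sequences are the 250 bases before the first listed start site of each gene in RefSeq, build GRCh38.p14, 5′ to 3′ on the strand of the gene, with the motif in capitals. They lie at chr7:97872409-97872658 on the minus strand for ASNS, chr15:40953221-40953470 on the plus strand for CHAC1 and chr9:92293698-92293947 on the minus strand for IARS.
ASNS: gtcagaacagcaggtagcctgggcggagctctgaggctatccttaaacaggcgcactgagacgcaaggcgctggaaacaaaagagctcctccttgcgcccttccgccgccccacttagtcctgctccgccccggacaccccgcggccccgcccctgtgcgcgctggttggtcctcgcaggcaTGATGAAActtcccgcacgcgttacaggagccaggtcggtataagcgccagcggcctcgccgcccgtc
CHAC1: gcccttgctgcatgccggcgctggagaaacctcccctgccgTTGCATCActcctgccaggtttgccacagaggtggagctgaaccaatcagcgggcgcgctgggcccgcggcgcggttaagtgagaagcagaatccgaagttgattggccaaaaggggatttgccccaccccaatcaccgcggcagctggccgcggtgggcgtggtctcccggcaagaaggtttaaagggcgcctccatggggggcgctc
IARS: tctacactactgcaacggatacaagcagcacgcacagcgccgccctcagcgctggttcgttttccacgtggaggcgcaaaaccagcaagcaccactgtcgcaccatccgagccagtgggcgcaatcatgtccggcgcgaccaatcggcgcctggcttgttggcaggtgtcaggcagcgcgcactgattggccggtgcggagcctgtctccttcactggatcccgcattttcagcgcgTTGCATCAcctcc
The motif begins 68 bases before the start site in ASNS, 209 in CHAC1 and 13 in IARS, and in CHAC1 and IARS it reads on the opposite strand.

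The letters searched were TGATGNAA on either strand (TTNCATCA when read on the opposite one) in windows of 250 bases before to 50 after the first listed start. Matched by symbol, 11697 of the 15638 tested genes had a promoter in the table, and 1.95% of these held the motif, against 3.67% of all 27305 genes with a promoter there. Of the 85 genes called higher that had a promoter, 11 held it (12.9%). It was in 0 of the 17 genes called lower that had one. Over the 4 stress response and amino acid lists, called or not, 16 of 58 members with a promoter held it (27.6%). Among genes called higher that were in none of these lists, the share was 3 of 60 (5%). Known targets of this element are among the members of the lists, so the shares are a description. A match shows letters only, and no binding was measured.

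The stress response regulators had the largest median log2 change of the lists tested. Of 20 tested members 10 were called higher and 0 lower, 19 had a log2 fold change above 0, and their median was 0.33. CHAC1 read 5.11, 4.11 and 3.63 CPM in DMSO libraries 1 to 3 and 15.1, 14.3 and 13.8 CPM at 150 nM. Every treated library lay above every control, and the log2 fold change was 1.74 ± 0.11 (SE) with an adjusted p of 6.65e-08 in edgeR. SESN2, a stress-induced inhibitor of mTORC1 signalling, read 17.2, 16.0 and 15.1 CPM in DMSO and 36.6, 36.2 and 32.8 CPM at 150 nM. It rose by 1.13 ± 0.08 on the log2 scale, or 2.19-fold (edgeR adjusted p = 1.11e-07).

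ATF3, a stress-induced repressor, was close to absent in DMSO with 0.397, 0.176 and 0.565 CPM, and read 2.99, 2.44 and 2.29 CPM at 150 nM. These are 10, 3 and 14 counts in DMSO against 74, 59 and 43. Its groups did not overlap and it was called higher (edgeR adjusted p = 3.35e-05), but no fold is given, since a DMSO library lay at 3 counts. CEBPB, a C/EBP partner, rose by 1.25 ± 0.14 and VLDLR, a lipoprotein receptor, by 0.92 ± 0.08, each without overlap. DDIT3, which encodes the pro-apoptotic factor CHOP, read 8.68, 9.33 and 6.42 CPM in DMSO and 12.4, 13.8 and 12.3 CPM at 150 nM, a log2 change of 0.67 ± 0.12. DDIT3 had an edgeR adjusted p of 0.0059, and 0.052 without 150 nM library 2. The other called members were PPP1R15A, which directs the phosphatase that restores translation, TRIB3, ATF5 and EIF4EBP1, with log2 changes from 0.36 to 0.60, and all 4 stayed called with any 1 library left out.

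ATF4 itself, the centre of this response, did not pass. Its mRNA read 523, 522 and 505 CPM in DMSO and 582, 569 and 586 CPM at 150 nM. The groups did not overlap, as was so in the higher direction for 6.73% of all tested genes, and the log2 change was 0.17 ± 0.04 with an edgeR adjusted p of 0.081. Over the alternatives this adjusted p ran from 0.0051 with the trend on transcript GC content removed to 0.279 on the centred TPM scale. CEBPG missed the threshold with a log2 change of 0.27 ± 0.06 (edgeR adjusted p = 0.053), and with the replicate block it passed (0.038). The 4 kinases that phosphorylate eIF2 gave log2 changes from −0.07 for EIF2AK4 to 0.11 for EIF2AK3, and none was called.

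**Figure D2:**
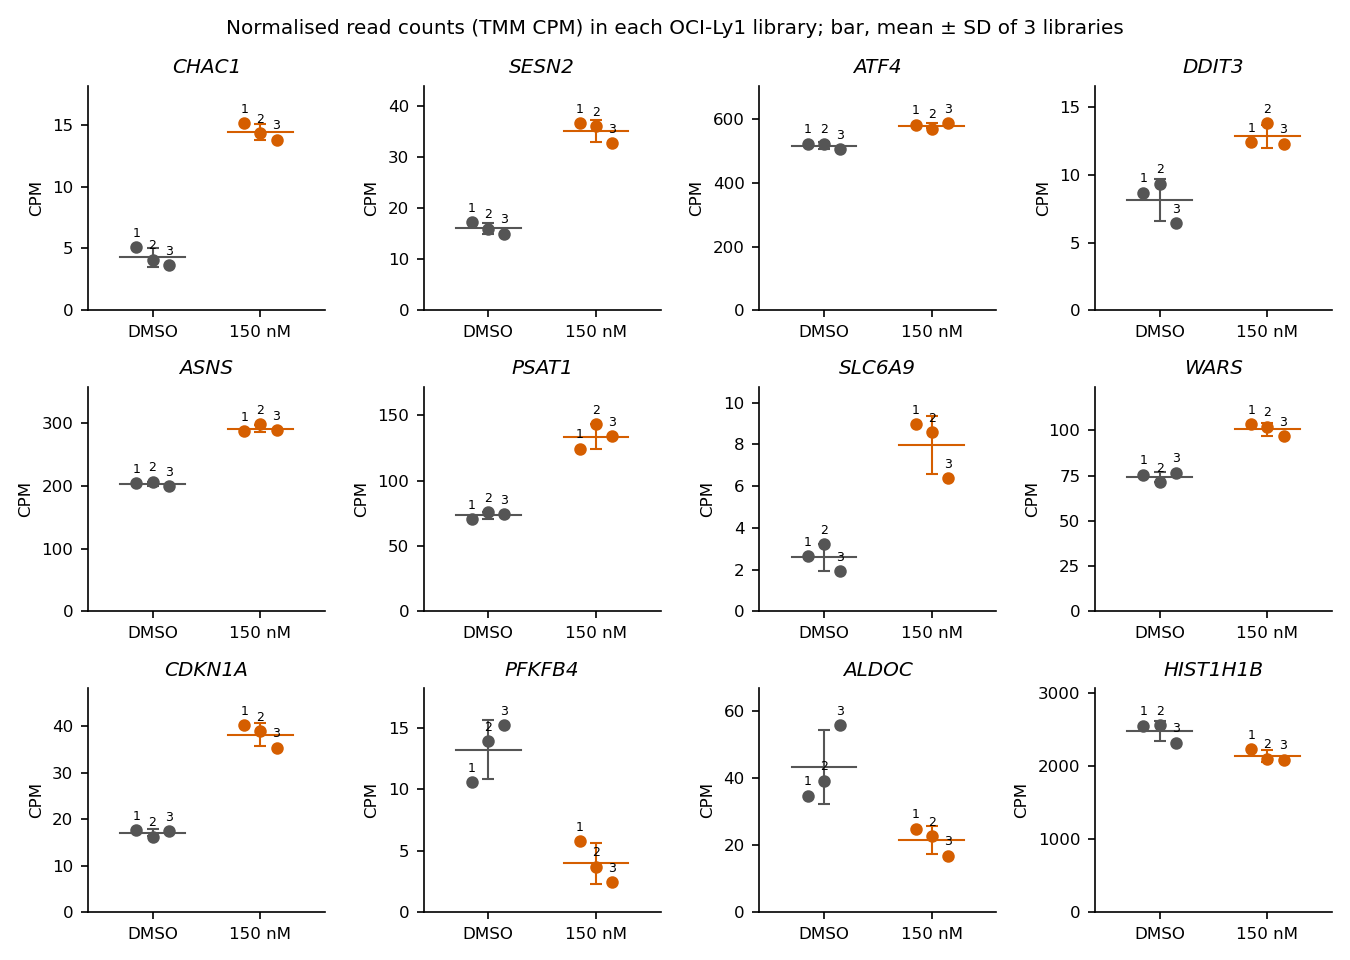
Normalised read counts (CPM) of 12 genes in each DMSO library (grey) and each 150 nM library (orange), with the library number above each point and the mean ± SD of 3 libraries. The groups of each gene shown do not overlap; ATF4 was not called, and PFKFB4 at 150 nM spans from 2.45 to 5.77 CPM.

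In the amino acid programme 22 of 53 tested enzymes, transporters and tRNA synthetases were called higher and 0 lower. Without 150 nM library 2 the count was 14. Among enzymes, 11 of 20 were called higher, with a median log2 change of 0.28 over all 20. PSAT1, an enzyme of serine synthesis, read 70.5, 75.9 and 74.3 CPM in DMSO and 124, 143 and 134 CPM at 150 nM. It rose by 0.86 ± 0.06 on the log2 scale (edgeR adjusted p = 1.11e-07), and the gap between the groups was wider than either group's range. ASNS read 204, 206 and 200 CPM in DMSO and 286, 298 and 289 CPM at 150 nM, a rise of 0.52 ± 0.05 with tight groups (edgeR adjusted p = 7.69e-06).

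CTH, which makes cysteine from cystathionine, rose by 0.97 ± 0.09, and PCK2, the mitochondrial enzyme that makes phosphoenolpyruvate, by 0.99 ± 0.10. The serine synthesis enzymes PHGDH and PSPH rose by 0.46 ± 0.06 and 0.35 ± 0.06, and the one-carbon enzyme MTHFD2 by 0.38 ± 0.05, each called in edgeR. BCAT1, GPT2, PYCR1 and CBS, which work in branched-chain, alanine, proline and sulphur amino acid metabolism, were the other called members. CBS lost its call without any library except 150 nM library 3 (0.0635 to 0.146), and PSPH (0.0502) and GPT2 (0.0616) without 150 nM library 2. Of the 20 enzymes, 9 were not called and 5 had a log2 change below 0. SHMT2, another serine and one-carbon enzyme, changed by 0.11 ± 0.05 (edgeR adjusted p = 0.467), and ALDH18A1, the first enzyme of proline synthesis, by −0.11 ± 0.05 with no overlap (edgeR adjusted p = 0.501).

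Of 13 tested amino acid transporters 5 were called higher, and the median log2 change was 0.20. SLC6A9, a glycine transporter, read 2.66, 3.23 and 1.94 CPM in DMSO and 8.96, 8.58 and 6.38 CPM at 150 nM, so that the lowest treated library was still above the highest control. It rose by 1.66 ± 0.16 on the log2 scale, or 3.15-fold (edgeR adjusted p = 7.69e-06). SLC43A1, a carrier of large neutral amino acids, rose by 0.90 ± 0.08, and SLC1A5, which imports glutamine, by 0.41 ± 0.07. SLC7A11, the cystine importer, rose by 0.37 ± 0.07 with an edgeR adjusted p of 0.012, which became 0.057 without DMSO library 1, 0.094 without DMSO library 2 and 0.12 without 150 nM library 2. Its heavy chain SLC3A2 was called at 0.25 ± 0.06 but not without DMSO library 2 or 3 or 150 nM library 1 or 2 (0.0519 to 0.135), whereas the leucine carrier SLC7A5 was not, with overlapping groups and 0.19 ± 0.07 (edgeR adjusted p = 0.3, and 0.0099 with the GC trend removed). The count of called transporters was 3 without DMSO library 2 and 3 without 150 nM library 2.

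Of 20 cytosolic tRNA synthetases, which load amino acids onto tRNA, 6 were called higher, with changes that were small but measured at high counts. WARS read 75.3, 71.2 and 76.5 CPM in DMSO and 103, 102 and 96.6 CPM at 150 nM, a rise of 0.43 ± 0.06 (edgeR adjusted p = 4.35e-04). GARS rose by 0.31 ± 0.05. IARS read 771, 773 and 776 CPM in DMSO and 885, 883 and 909 CPM at 150 nM. That is only 1.15-fold, yet the spread within DMSO was so narrow (773 ± 2.30 CPM, SD, n = 3) that it was called at 0.21 ± 0.04. The other called members were TARS at 0.36 ± 0.07, CARS at 0.27 ± 0.06 and SARS at 0.23 ± 0.05. The count fell to 2 without 150 nM library 3, to 3 without 150 nM library 2 and to 3 without DMSO library 2. The IARS adjusted p was 0.05, just above the threshold, without DMSO library 2 and without 150 nM library 3. For TARS it was 0.056 to 0.08 without DMSO library 1 or 2 or 150 nM library 2 or 3. CARS lost its call without DMSO library 1 or 3 or 150 nM library 2 or 3 (0.054 to 0.0906), and SARS without DMSO library 2 or 3 or 150 nM library 2 or 3 (0.0645 to 0.179).

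The endoplasmic reticulum (ER) arm of the unfolded protein response showed a different picture, with 3 of 22 tested members called higher and a median log2 change of −0.03. The 3 were EDEM1 and SEL1L, which take misfolded proteins out for degradation, and HERPUD1, a partner of the same machinery. EDEM1 read 177, 182 and 168.9 CPM in DMSO and 221, 233 and 216 CPM at 150 nM, a rise of 0.34 ± 0.05 (edgeR adjusted p = 9.09e-04). SEL1L rose by 0.31 ± 0.06 and had an edgeR adjusted p of 0.062 without 150 nM library 2, where 1 member of the list was called. HERPUD1 rose by 0.24 ± 0.05 with an edgeR adjusted p of 0.039, and it lay between 0.10 and 0.17 without DMSO library 1 or 2 or 150 nM library 2 or 3. Without any of these 4 libraries the list had 1 or 2 called members. The central chaperone HSPA5 overlapped between groups at −0.07 ± 0.08, and its log2 change was 0.026 without 150 nM library 2. The sensor ERN1 at 0.58 ± 0.13 had an edgeR adjusted p of 0.05, just above the threshold, and of 0.036 with the replicate block.

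Among 29 tested p53 targets 4 were called higher and 0 lower, 24 had a log2 change above 0, and the median was 0.15. CDKN1A, the cell-cycle inhibitor p21, read 17.6, 16.2 and 17.4 CPM in DMSO and 40.1, 38.9 and 35.3 CPM at 150 nM. It rose by 1.16 ± 0.07 on the log2 scale, or 2.23-fold, with widely separate groups (edgeR adjusted p = 2.3e-08). BBC3, which encodes the BH3-only killer PUMA, read 5.47, 7.28 and 5.85 CPM in DMSO and 13.2, 10.1 and 11.2 CPM at 150 nM, a rise of 0.91 ± 0.13 (edgeR adjusted p = 7.7e-04). PLK2, a kinase, rose by 0.84 ± 0.09 and TP53INP1, an autophagy and death factor, by 0.40 ± 0.05. MDM2, the p53 ubiquitin ligase and a classical p53 target, overlapped between groups with 0.12 ± 0.05 (edgeR adjusted p = 0.48, and 0.042 without 150 nM library 1). The count of called members was 4 with DMSO 1, DMSO 2, DMSO 3, 150 nM 2 or 150 nM 3 left out and 7 without 150 nM library 1.

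**Figure D3:**
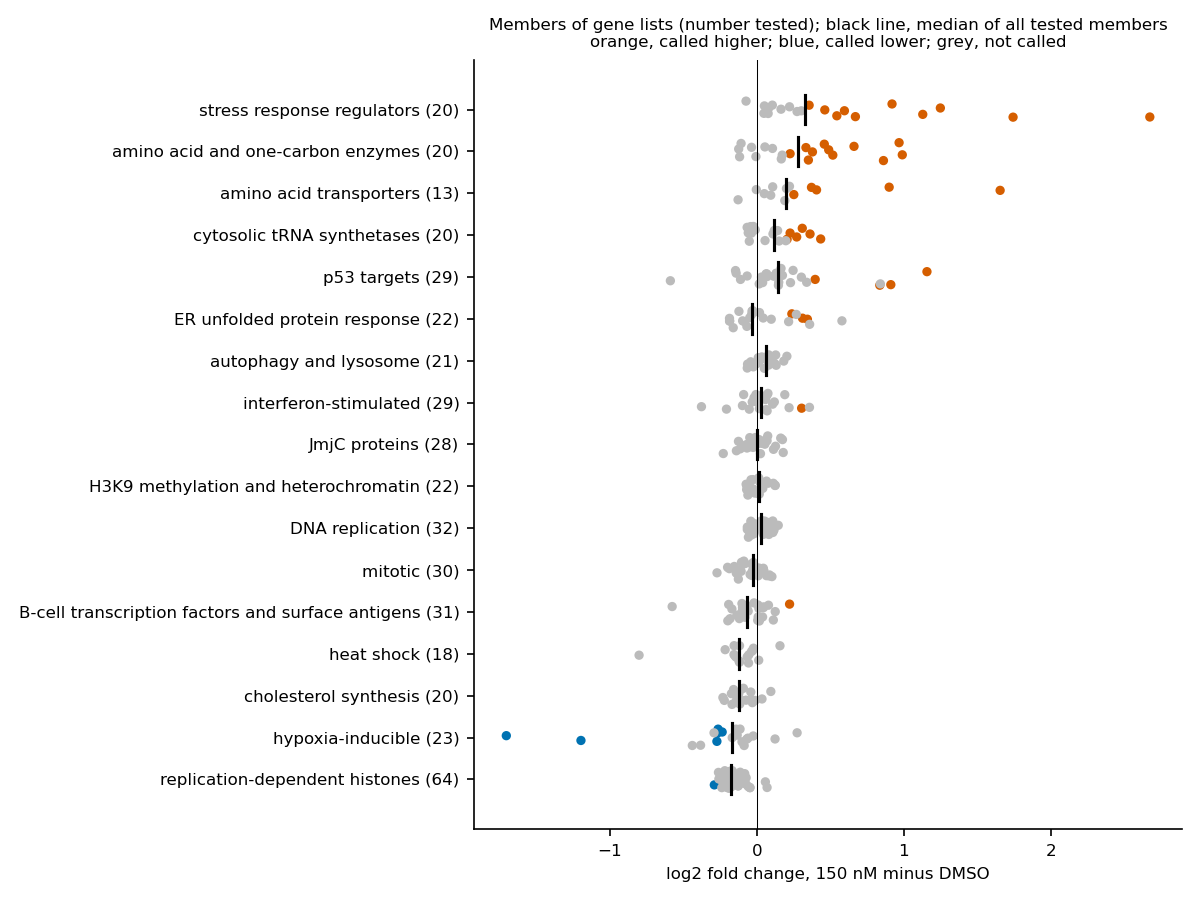
Log2 fold change at 150 nM against DMSO of the members of 17 gene lists, for members that averaged 1 CPM or more in a group, coloured by call; the black line is the median of all tested members and the number in brackets how many were tested. The top 4 lists reach to the right, and the hypoxia-inducible list holds 6 of the genes called lower.

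The genes called lower included enzymes of sugar breakdown. In the hypoxia-inducible list 6 of 23 tested members were called lower and 0 higher, with a median of −0.17. Among 18 glycolytic enzymes, a list drawn up after the values were seen, 8 were called lower and 17 had a log2 change below 0. PFKFB4, which makes the activator of phosphofructokinase, read 10.5, 13.9 and 15.2 CPM in DMSO and 5.77, 3.71 and 2.45 CPM at 150 nM. It fell by 1.70 on the log2 scale (SE 0.22, edgeR adjusted p = 2.95e-04), and although each group spanned a wide range the groups stayed apart.

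ALDOC, an aldolase, read 34.8, 39.2 and 55.7 CPM in DMSO and 24.9, 22.8 and 16.9 CPM at 150 nM, a log2 change of −1.0 ± 0.16 (edgeR adjusted p = 0.00196). AK4, a mitochondrial adenylate kinase, changed by −1.196 ± 0.22 and had an edgeR adjusted p of 0.0094, or 0.076 without 150 nM library 2. Besides ALDOC, the glycolytic enzymes called lower were GPI, ALDOA, TPI1, PGK1, ENO1, PKM and LDHA, with log2 changes from −0.28 to −0.23. Over all 18 enzymes of that list, called or not, the changes ran from −1.0 to 0.68 with a median of −0.196. ENO1, for one, read 2239, 2366 and 2409 CPM in DMSO and 2103, 1864 and 1844 CPM at 150 nM. ENO3, the muscle enolase, went the other way and was called higher at 0.68 ± 0.13, though not without DMSO library 1 (0.0746), DMSO library 2 (0.0589) or 150 nM library 2 (0.119). The hypoxia-inducible genes VEGFA (0.27 ± 0.16) and SLC2A1 (−0.09 ± 0.06), for a growth factor and a glucose importer, overlapped between groups.

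Many of these calls rested on single libraries. Along the list of 23 hypoxia-inducible genes, the median deviation from the DMSO mean was −0.19 in DMSO library 1 and 0.12 in DMSO library 3, and at 150 nM it was −0.18, −0.09 and −0.24, so DMSO 1 lay within the treated range. Without 150 nM library 2 the hypoxia-inducible list had 1 called member and the glycolytic list 1. PGK1 (0.05, just above the threshold) and ENO1 (0.084) then lost their calls in edgeR, while PFKFB4 and ALDOC stayed called with any 1 of the 6 libraries left out. TPI1 (0.0776), PKM (0.0852), GPI (0.188), ALDOA (0.174) and LDHA (0.258) lost theirs there too. GPI, ALDOA and LDHA were also not called without DMSO library 2 or 150 nM library 3, nor GPI and LDHA without DMSO library 3. Without DMSO library 2 the glycolytic list had 5 called members and without 150 nM library 3 it also had 5. On the log2(TPM + 1) scale PFKFB4 was the single gene called lower, and the glycolytic list had 0.

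CYP1A1, the classical target of the aryl hydrocarbon receptor, read 44.5, 36.8 and 35.6 CPM in DMSO and 28.3, 24.1 and 26.9 CPM at 150 nM. It fell by 0.56 on the log2 scale (SE 0.09, edgeR adjusted p = 0.00263), and it was the single called member of 6 in its list. TFRC, the transferrin receptor that brings in iron, read 525, 557 and 536 CPM in DMSO and 629, 671 and 660 CPM at 150 nM. TFRC rose by 0.28 ± 0.04 (edgeR adjusted p = 0.00249), the single called member of 8 iron-handling genes. Of 8 tested metal-response genes 0 were called. MT1F, a metallothionein and the member with the smallest p, had 4, 0 and 0 counts in DMSO and 7, 2 and 3 at 150 nM, too few for a fold.

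The JmjC proteins, the wider family to which the targets of the drug belong, and the heterochromatin machinery showed no called gene. Of 28 JmjC genes 0 were called in edgeR's test, and the median log2 change was −5.83e-04. Of the 28, 2 had an unadjusted p under 0.05 in edgeR, as had 1588 of all 15638 tested genes. Among the JmjC genes DESeq2 and limma also called 0, and a fit of the 6 libraries alone with the replicate block called 1 higher and 1 lower. KDM4A read 82.4, 83.9 and 78.1 CPM in DMSO and 91.1, 84.2 and 78.2 CPM at 150 nM, with overlapping groups and a log2 change of 0.05 ± 0.06. KDM4C changed by 0.01 ± 0.06 (95% interval −0.12 to 0.14) and KDM4B by −0.12 ± 0.09 (95% interval −0.32 to 0.07), both with overlap. The 95% interval of each of these H3K9 demethylases held 0, and for KDM4A and KDM4C the sign turned with 1 library left out. KDM4B averaged 34.4 ± 0.54 CPM in DMSO and 31.4 ± 5.29 CPM at 150 nM (SD, n = 3), so its spread was wide at 150 nM alone. JMJD6 had the smallest p of the list, at −0.23 ± 0.07 (edgeR adjusted p = 0.146). Of 22 genes of H3K9 methylation and heterochromatin 0 were called and 0 had an unadjusted p under 0.05 in edgeR, and in DESeq2 the count called was also 0. ATRX, a chromatin remodeller, came nearest at 0.12 ± 0.06 (edgeR adjusted p = 0.509).

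Replication-dependent histone genes tilted downward: 61 of 64 tested had a log2 change below 0, with a median of −0.18, and 29 were non-overlapping in the lower direction, where 7.29% of all tested genes were. Along this list the median deviation from the DMSO mean was 0.054, −0.002 and −0.083 in DMSO libraries 1 to 3. At 150 nM it was −0.090, −0.19 and −0.19, so DMSO 3 lay close to 150 nM library 1. Only HIST1H2AL and HIST1H1B were called, against 11 with the replicate block. HIST1H1B, a linker histone, read 2556, 2557 and 2319 CPM in DMSO and 2234, 2103 and 2090 CPM at 150 nM, a fall of 0.21 (SE 0.05) with an edgeR adjusted p of 0.045. HIST1H2AL fell by 0.29 (SE 0.06, edgeR adjusted p = 0.014). Both lost their calls without DMSO library 1 (0.17 and 0.052), DMSO library 2 (0.24 and 0.12) and 150 nM library 2 (0.25 and 0.12), and HIST1H1B also without 150 nM library 3 (0.18). Without 150 nM library 1 the list had 14 called and without DMSO library 3 it had 11. Histone copies are near-identical in sequence, so reads may be split between them, and their mRNAs lack the usual poly(A) tail, which the rRNA-depleted libraries do not require.

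Heat shock genes (16 of 18 below 0, median −0.12) and cholesterol synthesis genes (18 of 20 below 0, median −0.12) leaned lower with 0 called in edgeR's test. In that test 7 and 8 members had an unadjusted p under 0.05, against 1588 of all 15638 tested genes. DESeq2 also called 0 of each. Over the other alternatives the count called lower reached 3 in each list, in the fit of the 6 libraries alone with the replicate block, and limma voom called 1 heat shock gene lower. Of the heat shock genes, HSPA8, a constitutive chaperone, came nearest to the threshold at −0.15 ± 0.04 (edgeR adjusted p = 0.149). HSPA8 was called without 150 nM library 3 (0.031).

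Proliferation genes did not show a called change at this dose. None of 30 mitotic genes passed edgeR's test, with 6 at an unadjusted p under 0.05, where 1588 of all 15638 tested genes were. PLK1, a mitotic kinase, read 99.2, 110 and 97.8 CPM in DMSO and 89.8, 81.3 and 83.2 CPM at 150 nM, a log2 change of −0.27 ± 0.06 (edgeR adjusted p = 0.056). With the replicate block PLK1 had an adjusted p of 0.034, with DESeq2 0.014, without DMSO library 3 0.042 and without 150 nM library 1 0.015. None of 32 DNA replication genes passed, with 2 at an unadjusted p under 0.05, and RRM2 changed by 0.11 ± 0.04 (edgeR adjusted p = 0.395).

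Of 31 tested B-cell transcription factors and surface antigens 1 was called, BACH2, a repressor of plasma cell fate, which was higher. Of the 31, 18 had a log2 change below 0, the median was −0.06, and 10 were non-overlapping in the lower direction against 1 in the higher. Over all tested genes the non-overlapping shares were 7.29% in the lower direction and 6.73% in the higher. BACH2 read 194, 194 and 195 CPM in DMSO and 232, 223 and 225 CPM at 150 nM, a rise of 0.22 ± 0.05 (edgeR adjusted p = 0.035). It was called with 1 of the 6 libraries left out, 150 nM library 1, and had an edgeR adjusted p of 0.057 to 0.15 without each of the other 5. ICAM1, an adhesion molecule, was the single called NF-kB target of 21, at 0.86 ± 0.17. Its level was low, with 1.67, 1.23 and 1.53 CPM in DMSO and 2.78, 2.89 and 2.45 CPM at 150 nM. SAMD9L, an antiviral factor, was the single called interferon-stimulated gene of 29, at 0.31 ± 0.07. ICAM1 lost its call without DMSO library 2 (0.073) or 150 nM library 2 (0.082), and SAMD9L without DMSO library 1 (0.15), DMSO library 2 (0.11), 150 nM library 2 (0.14) or 150 nM library 3 (0.18). ZNF395 was the single called member of 427 zinc-finger genes, at −0.36 ± 0.06, with 0.051 without 150 nM library 2.

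The remaining lists had 0 called members in edgeR's test, and each member with the smallest p is given as a value. They were HRK of the BCL2 family (0.22 ± 0.08), HLA-DMB of MHC class II (−0.26 ± 0.14), UTP14A of ribosome biogenesis (−0.17 ± 0.06), WIPI1 of autophagy (0.20 ± 0.07) and TKT of the NRF2 antioxidant genes (−0.17 ± 0.05). RPL21 of the ribosomal proteins read 0.30 ± 0.09 with overlapping groups. IER5 of the immediate-early genes (0.36 ± 0.09, edgeR adjusted p = 0.061) and the snoRNA host SNHG4 (−0.31 ± 0.08, edgeR adjusted p = 0.062) were nearest to a call. With the replicate block IER5 had an adjusted p of 0.037 and SNHG4 of 0.02. Without 150 nM library 1 TKT (0.026) and SNHG4 (0.037) passed, and without 150 nM library 3 RPL21 (0.029).

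Outside the lists the largest rises were of genes with low levels. Among called genes that reached 5 CPM in a group and had more than 3 counts in every library, ROCK1P1 and SPNS3 were first. ROCK1P1, a partial copy of the kinase gene ROCK1, read 3.65, 3.05 and 3.75 CPM in DMSO and 20.9, 19.1 and 16.0 CPM at 150 nM, a log2 change of 2.41 ± 0.13 (edgeR adjusted p = 4.62e-09). SPNS3, a transporter-like gene, read 0.912, 1.58 and 1.53 CPM in DMSO and 7.18, 6.93 and 5.91 CPM at 150 nM, a change of 2.35 ± 0.17 (edgeR adjusted p = 1.37e-07). Both stayed called with any 1 of the 6 libraries left out. EIF3CL (1.31 ± 0.21), TBC1D3F (1.204 ± 0.27) and ROCK1P1 have near-identical copies elsewhere in the genome, so their counts are uncertain. TBC1D3F lost its call without DMSO library 2 (0.08), 150 nM library 2 (0.081) or 150 nM library 3 (0.10). ANK2, an ankyrin of the membrane skeleton, rose by 0.93 ± 0.14. ESRP1, an epithelial splicing regulator named after its values were seen, had 7, 3 and 0 counts in DMSO and 93, 99 and 58 at 150 nM, and it stayed called with any 1 library left out. DUX2, a repeat-array homeobox gene with near-identical copies, had 17, 3 and 11 counts in DMSO and 142, 121 and 103 at 150 nM. No fold is given for these 2, since each had a DMSO library at or under 3 counts.

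By the same rule the largest falls outside the sugar, hypoxia and aryl hydrocarbon receptor lists included TSPAN11, a tetraspanin, at −0.93 ± 0.16, the pseudogene FAM133DP at −0.62 ± 0.13 and DYX1C1, a dynein assembly factor, at −0.48 ± 0.10. TSPAN11 read 11.1, 13.1 and 15.3 CPM in DMSO and 8.39, 6.64 and 5.53 CPM at 150 nM. TSPAN11 kept its call with any 1 library left out. FAM133DP did not without DMSO library 1 (0.12), DMSO library 2 (0.15) or 150 nM library 3 (0.14), and DYX1C1 did not without DMSO library 1 (0.079), DMSO library 3 (0.11), 150 nM library 2 (0.12) or 150 nM library 3 (0.099).

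The spread between libraries was as follows. Libraries of a group differed by an SD of 0.19 to 0.21 in DMSO and 0.17 to 0.21 at 150 nM (log2 CPM over genes), and pairs across the groups by 0.16 to 0.26. The closest pair of all 15 was DMSO 1 with 150 nM 1, so library 1 of each group was more like the other than like its own group. The biological coefficient of variation estimated by edgeR was 7.83% in DMSO and 7.26% at 150 nM. It was 5.21% at 500 nM and 6.84% over all 9 OCI-Ly1 libraries, on which the main test was fitted. The first principal component, 33.3% of the variance of the 6 libraries, set DMSO 2 at 39.6 and the other 5 between −16.2 and −1.02. DMSO 2 also had the lowest total, and 63 genes there were more than 2 times every other OCI-Ly1 library, led by FGF23 at 69.1 CPM against at most 4.23. Some of the 63, such as CDH19 and IGDCC4, did not pass the low-count filter, and none of those tested was called in edgeR. A gene high in a single DMSO library has a wide spread within that group, so the lack of calls says little about the other genes. The thresholds of this check were chosen after the values were seen.

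Part of this spread followed base composition. Along the GC share of each gene's longest transcript, the deviation of a library from the mean of the 6 rose in DMSO 1 (Pearson's r = 0.50) and 150 nM 1 (0.51) and fell in DMSO 3 (−0.34), 150 nM 2 (−0.34) and 150 nM 3 (−0.46), with 0.11 in DMSO 2. These are correlations across 10359 genes, which are not independent. The log2 fold change itself ran with GC share at −0.20. With the trend removed, a check added after the data were seen, the test called 201 genes higher and 63 lower, and all 139 genes remained called.

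**Figure D4:**
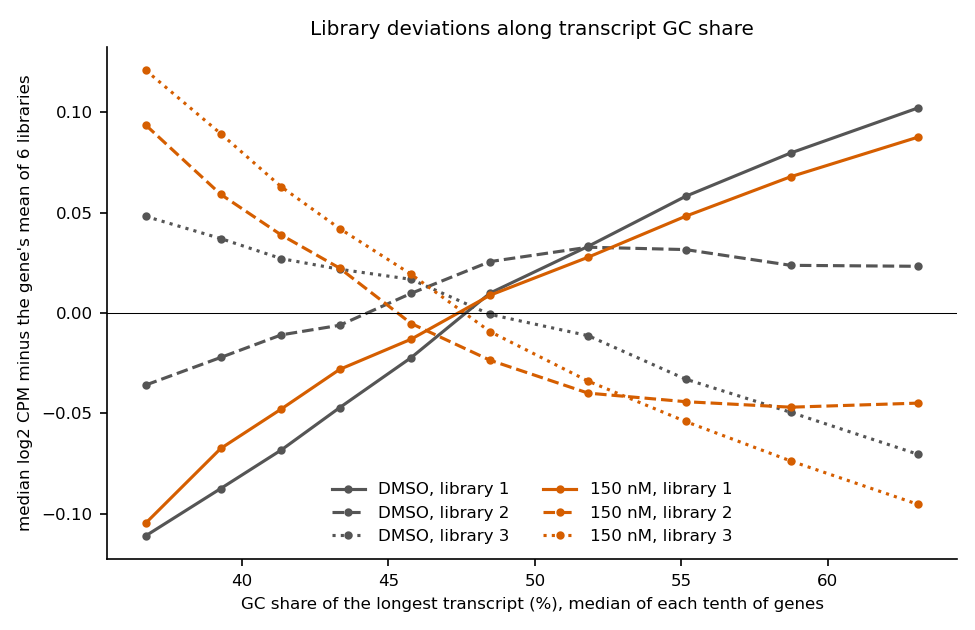
Median deviation of log2 CPM from each gene's mean of 6 libraries, for 10 equal classes of genes by transcript GC share, in DMSO (grey) and 150 nM (orange) libraries. Library 1 of both groups runs upward and library 3 of both downward, while 150 nM library 2 runs downward and DMSO library 2 slightly upward.

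Precision depended on level. The median SE of the log2 fold change was 0.453 below 1 CPM, 0.239 from 1 to 5 CPM, 0.121 from 5 to 20 CPM, 0.0731 from 20 to 100 CPM and 0.056 at 100 CPM or more. The smallest log2 changes called in these classes were 1.90, 0.74, 0.48, 0.26 and 0.19 in size. For 13583 of the 15499 genes not called (87.6%) the 95% interval lay within a 2-fold change either way, and for 11312 (73.0%) within 1.5-fold. At the low end, KCNK15 had 0, 0 and 1 counts in DMSO and 8, 9 and 6 at 150 nM, and P2RX1 had 1, 2 and 3 against 16, 17 and 11, so no fold is given for either.

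Of the 139 called genes, 56 were called with any 1 of the 6 libraries left out, 52 of them higher and 4 lower, and 40 were called under every one of 20 alternative settings that tested them. None changed sign. CHAC1, SESN2, CEBPB, VLDLR, ATF3, ASNS, PSAT1, CTH, PCK2, SLC6A9, SLC43A1, WARS, EDEM1, CDKN1A, PLK2, BBC3 and PFKFB4 were among those 40. With any 1 library left out, 9 to 11 stress response regulators were called.

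**Figure D5:**
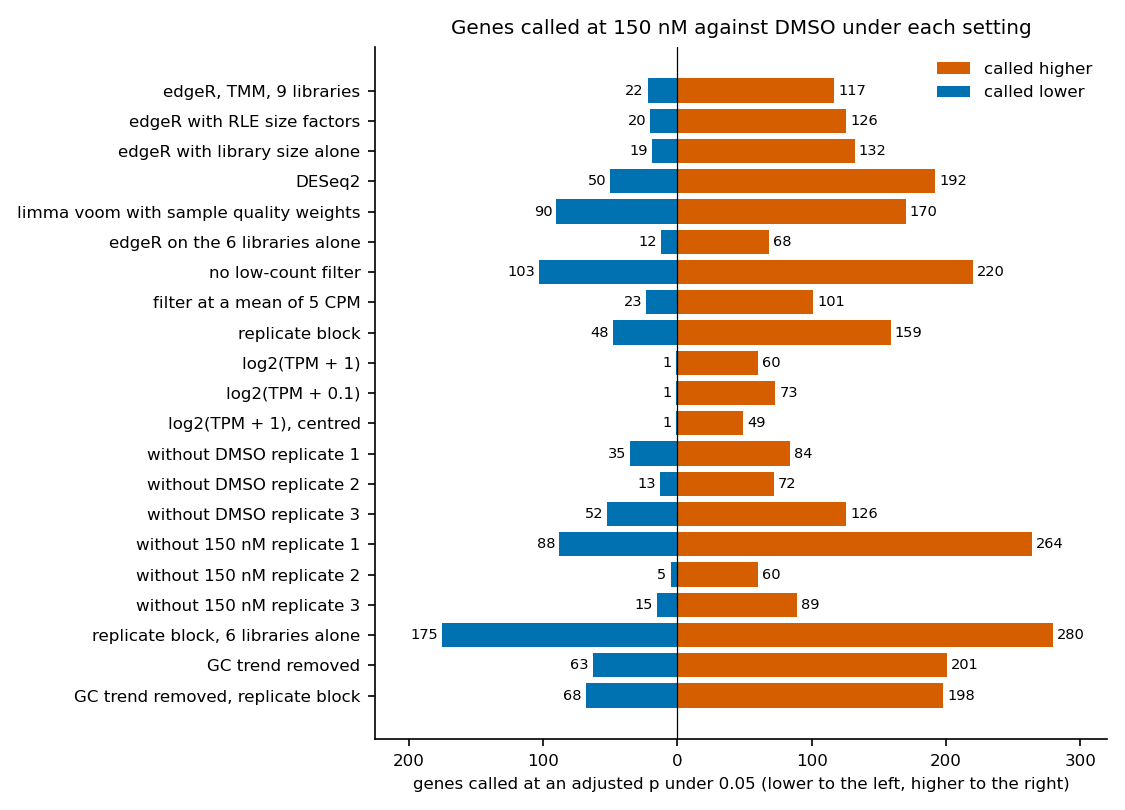
Number of genes called higher (orange, right) and lower (blue, left) at 150 nM against DMSO under each of 21 settings. The higher calls run from 49 to 280 and the lower calls from 1 to 175, and the 3 settings on the TPM scale call 1 gene lower each.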

How the data were processed

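RNA was measured by bulk RNA-seq, and the 3 DMSO and 3 150 nM OCI-Ly1 libraries were compared. The authors deposited estimated counts and TPM per gene symbol, per the file headers. The submitters' processing notes name kallisto 0.46.0, DESeq2 1.40.2, R 4.3.1 and hg19, without roles. The deposited estimated counts were rounded to whole numbers. Genes were tested with edgeR 4.0.16 (quasi-likelihood, run under R 4.3.3) after TMM scaling and with its low-count filter by group, fitted on 9 OCI-Ly1 libraries (the 3 given 500 nM share the estimate of spread), with Benjamini-Hochberg adjustment over 15638 genes. CPM are TMM-scaled. Alternatives used DESeq2 1.42.0, limma 3.58.1 and the deposited TPM on a log2 scale with a pseudocount of 1 or 0.1. The script was tested on simulated data. Depth was 17579732 to 25545170 estimated counts a library.

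The lists and genes were chosen with earlier results of these data known. Genes named were the 12 largest rises and 8 largest falls among called genes with at least 5 CPM, more than 3 counts in each library and no overlap; up to 4 called members per list; the smallest p where none was called; and 10 genes always, KDM4A, KDM4B, KDM4C, ATF4, DDIT3, ATF3, CHAC1, ASNS, CYP1A1 and CDKN1A. Other genes were chosen after their values were seen.

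Same-numbered DMSO and 150 nM libraries deviated together (r = 0.36, 0.12 and 0.35 for numbers 1 to 3). The numbers were taken as pairs only in the settings with the replicate block, and the main fit used the group alone. This pairing comes from the data, not from the labels, and 150 nM 2 correlated more with DMSO 3 (0.14). Same-numbered 500 nM libraries did not share these deviations (−0.14 to 0.11). 18 columns of the other cell line were not used here. Results on some members of the lists are not reported here. GC shares came from the longest GENCODE transcript and matched 10359 of 10695 genes (96.9%). Strand of counting is not given in the sources used here.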

Additional observations from a re-analysis of the deposited data

How the results depend on the processing

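All errors are between libraries that may share a culture. No called gene changed sign in 20 alternatives, which reuse the same libraries, and the groups of all 139 called genes did not overlap. Counts of genes called higher and lower were 192 and 50 with DESeq2, 68 and 12 on the 6 libraries alone, and 220 and 103 with no low-count filter. They were 60 and 1 on log2(TPM + 1), 73 and 1 on log2(TPM + 0.1) and 49 and 1 when centred, where the amino acid programme had 11. Voom with quality weights called 90 lower (65.4% of its calls were higher, against 84.2% in the edgeR fit and 98.4% on log2(TPM + 1)). With the replicate block 48 were lower, and on the 6 libraries alone the replicate block gave 280 and 175. The GC trend removed gave 201 and 63 with 7 p53 targets, and with the replicate block added 198 and 68. Leaving out 1 library gave 60 to 264 higher and 5 to 88 lower, 14 to 21 amino acid members and 4 to 7 p53 targets. Leaving out 1 library, KDM4A ran from −0.0025 (without 150 nM library 1) to 0.106, and KDM4C from −0.021 (without 150 nM library 1) to 0.046, with −0.0034 without DMSO library 2. KDM4C was −0.015 with voom weights; the cause was not tested. HSPA5 ran from −0.19 to 0.026 with 1 library left out. The replicate block on 9 libraries ended no call, and of the genes named with a value it newly called CEBPG, ERN1, PLK1, IER5 and SNHG4. With it 11 stress response regulators, 4 ER unfolded protein response genes, 6 transporters, 7 tRNA synthetases, 5 p53 targets and 11 histones were called.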

Other observations

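The genes called higher outside the lists included the 5 that follow. XPOT, which exports tRNA from the nucleus, read 327, 340 and 355 CPM in DMSO and 396, 409 and 415 CPM at 150 nM, a log2 change of 0.25 ± 0.05 (edgeR adjusted p = 0.0077). IFRD1, a stress-regulated transcriptional cofactor, rose by 0.38 ± 0.06 and CCPG1, an ER-phagy receptor, by 0.50 ± 0.09. ASS1, which makes argininosuccinate, rose by 0.74 ± 0.17 and INHBE, a secreted TGF-beta family subunit, by 1.21 ± 0.24. Without 150 nM library 2 the edgeR adjusted p was 0.0506 for XPOT, 0.065 for CCPG1, 0.0765 for INHBE and 0.2 for ASS1. Without DMSO library 2 it was 0.0501 for CCPG1 and INHBE and 0.191 for ASS1, which also lost its call without DMSO library 1 (0.134) or 150 nM library 3 (0.151). These genes were chosen after their values were seen.

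CXCR4, TNFRSF17, CD69 and MALAT1 were also called higher. CXCR4, the chemokine receptor of the germinal-centre dark zone, rose by 0.21 ± 0.04 and TNFRSF17, the plasma cell receptor BCMA, by 0.39 ± 0.08. CD69, an activation antigen, rose by 0.53 ± 0.11. CXCR4, TNFRSF17 and CD69 each lost the call with any of 4 libraries left out, at edgeR adjusted p-values of 0.054 to 0.146. MALAT1, an abundant nuclear long noncoding RNA, read 3483, 3807 and 3877 CPM in DMSO and 4748, 4505 and 4634 CPM at 150 nM, a rise of 0.31 ± 0.04 (edgeR adjusted p = 2.2e-04) that stayed called with any 1 of the 6 libraries left out. These genes were likewise chosen after their values were seen.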
